A study of Mus musculus with 6 samples.

Results

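The 7 genes Ly6a, Clu, Anxa1, Anxa3, Anxa8, Msln and Ankrd1, which mark the fetal-like state that intestinal epithelium takes on during repair, were followed by name among the 54532 genes counted in colonic tumors of mice. All 7 were found, and 6 of them were among the 16426 genes with a mean level of 0.5 FPKM or more (fragments scaled to gene length and to the depth of the library). Ankrd1 was under this filter and was fitted apart. RNA-seq had been performed on 3 bulk tumor samples of Tmem173fl/fl and 3 of Tmem173iΔmye mice on the C57BL/6N background, and 15329810 to 16533732 reads per tumor were counted on genes. In the Tmem173fl/fl mice, titled AOM_WT, both copies of Tmem173, the gene of the innate DNA-sensing adaptor STING, carry loxP sites and no Cre is present. The Tmem173iΔmye mice, titled AOM_CRE, carry the same floxed alleles and a tamoxifen-inducible Cre, named Lzym-Creert2 in the labels and Lyz2-Cre ert2 in the study, which acts in myeloid cells and leaves Tmem173 intact in the epithelium. Both groups received azoxymethane (AOM, a carcinogen), 3 cycles of dextran sodium sulfate (DSS, which injures the colonic epithelium) and then tamoxifen (TAM), so that deletion followed tumor formation. The study gives ages for tamoxifen treatment in general and for another arm of the tumor model, but not the age of these mice at tamoxifen or at collection, and the labels do not say whether each tumor came from a separate mouse, so p-values measure the spread between these samples.

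After ulceration, colonic crypts lose the markers of resting stem cells and for a time express genes of the fetal gut. Signals from the wounded matrix reach the nucleus through YAP and TAZ, which act with TEAD factors on target genes, while the Hippo kinases hold YAP and TAZ back. Such cells are known from colitis and from colon tumors in mice. Of the 7 genes, Ly6a encodes the surface protein Sca-1, Msln the surface protein mesothelin, Clu the secreted chaperone clusterin, Anxa1, Anxa3 and Anxa8 calcium-dependent membrane-binding proteins of the annexin family, and Ankrd1 a nuclear ankyrin repeat protein that is a classical target of YAP. Several are also made outside the epithelium, and in bulk tissue fewer cells of a type and less RNA per cell cannot be told apart.

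Counts identified the sex of the mice, which the labels do not give. Y-linked genes had 3547 counts in Tmem173fl/fl replicate 1 and 2875 and 2655 counts in Tmem173iΔmye replicates 1 and 2, while Xist had 20088, 26549 and 19712 counts in Tmem173fl/fl replicates 2 and 3 and Tmem173iΔmye replicate 3. The groups thus held 1 and 2 male tumors. Tmem173 itself differed by less than the spread of the replicates in whole tumor RNA (log2 fold change 0.0015, SE 0.24) and so gave no check of the genotype labels. The 10 epithelial markers, led by Krt8, summed to between 5990 and 7720 FPKM in each tumor. In Tmem173fl/fl replicate 2, 10 markers of squamous epithelium summed to 194 FPKM against 24.2 to 64.5 FPKM in the other tumors, and in Tmem173iΔmye replicate 1, 8 neutrophil markers summed to 550 FPKM against 82.1 to 256 FPKM. Of these 8, Ly6g was instead highest in Tmem173fl/fl replicate 1 (107 FPKM, against 66.4 FPKM in Tmem173iΔmye replicate 1).

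The fetal-like genes did not move together between the genotypes. In the quasi-likelihood test of edgeR, adjusted over all genes tested by the method of Benjamini and Hochberg, none of the 7 had an adjusted p under 0.05, and at that threshold the background was also empty (0% of 16426 genes). None passed the threshold of the study, which asks for a 2-fold change (1 on the log2 scale) and an unadjusted p under 0.05 and which 2.12% of the genes tested passed. Clu was the 1 of 6 tested genes with an unadjusted p under 0.05, against 6.14% of all genes. DESeq2 gave 3 of 6 (Clu, Msln and Ly6a, at 0.0129, 0.0382 and 0.0417) against 6.66% of all genes, edgeR without a filter gave the same 3 against 5.63%, and with sex as a covariate edgeR gave 0. The log2 fold change of Tmem173iΔmye over Tmem173fl/fl was above 0 for Ly6a, Clu, Anxa1 and Anxa3 and below 0 for Msln, Anxa8 and Ankrd1, and 49.4% of all genes were above 0. The median over the 6 tested genes was 0.15, beside -0.0042 over all genes.

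**Figure D1:**
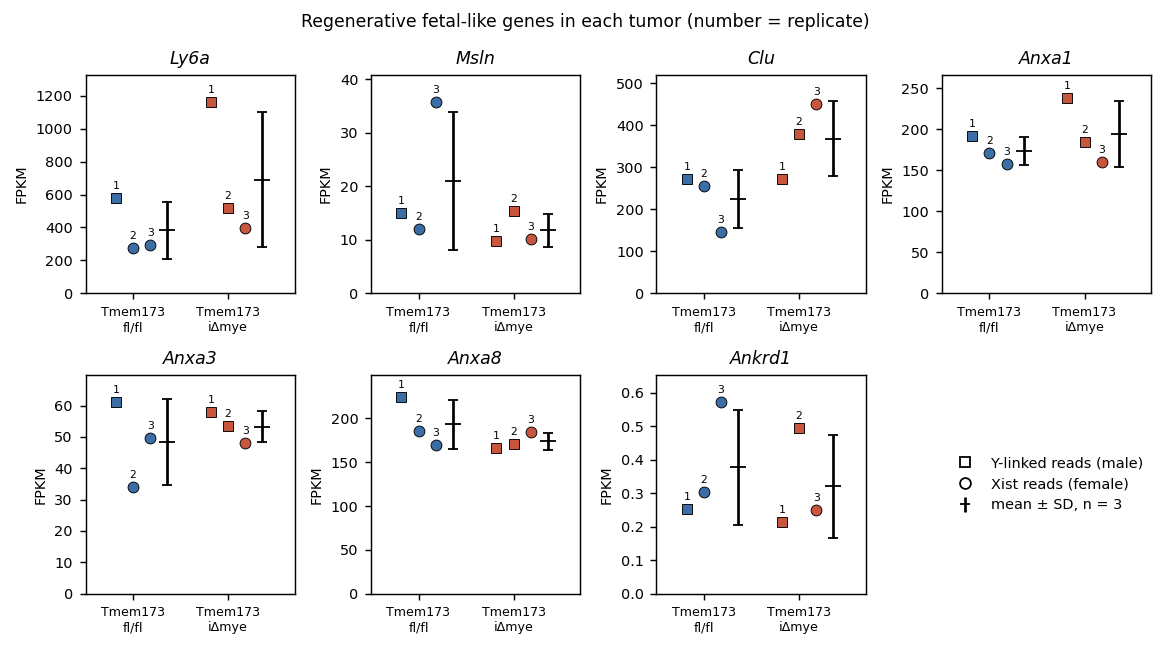
Level of each of the 7 genes in each tumor, as the deposited FPKM on a linear axis that starts at 0. Points are single tumors with their replicate number (squares, male; circles, female), and the bars give mean ± SD (n = 3). Ly6a reached 1160 FPKM in Tmem173iΔmye replicate 1 and Msln 35.8 FPKM in Tmem173fl/fl replicate 3, while the Clu values of the groups met at 271 and 273 FPKM.

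By level, the genes spanned a wide range. Mean FPKM, which corrects for gene length, was 536 for Ly6a, 296 for Clu, 184 for both Anxa1 and Anxa8, 50.8 for Anxa3, 16.4 for Msln and 0.349 for Ankrd1. Ly6a lay at the percentile 99.7 of the genes tested and Clu at 99.3, while Msln lay at 77.2. Ly6a exceeded Clu in 5 of 6 tumors and Clu exceeded Anxa1 in 5 of 6, with overlapping ranges. Anxa1 exceeded Anxa8 in 2 of 6 tumors, so these neighbours were not separated. Anxa8 exceeded Anxa3, and Msln exceeded Ankrd1, in 6 of 6 tumors with ranges that did not overlap. Anxa3 exceeded Msln in 6 of 6 tumors as well, but the ranges of the pair overlapped across tumors.

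Ly6a (ENSMUSG00000075602, minus strand of GRCm38, chr15:74994877-74998031), the gene of Sca-1, is a marker of the repairing epithelium and is also carried by endothelial and immune cells and induced by interferon. It had 578, 275 and 292 FPKM in Tmem173fl/fl replicates 1, 2 and 3 and 1160, 517 and 396 FPKM in Tmem173iΔmye replicates 1, 2 and 3. Tmem173iΔmye replicate 1 stood apart from all others, and the highest Tmem173fl/fl tumor exceeded the remaining Tmem173iΔmye tumors, so the groups overlapped. Normalised by TMM (trimmed mean of M-values), the level was 463 ± 210 CPM (counts scaled to library size; SD, n = 3) in Tmem173fl/fl and 833 ± 492 CPM in Tmem173iΔmye tumors. The log2 fold change was 0.85 (SE 0.45, 95% interval -0.20 to 1.89, edgeR adjusted p = 0.742), which is within the spread of the replicates. Without Tmem173iΔmye replicate 1, the tumor in which the sums of interferon and of neutrophil genes were also highest, it was 0.25. The counts of Ly6a may include reads shared with near-identical members of the Ly6 family, which lie beside it.

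The level of Ly6a also differed between these male and female tumors. Its CPM was 626 to 1400 in the 3 male and 330 to 478 in the 3 female tumors, with no overlap. Of all genes tested, 9.7% were likewise higher in every male tumor. In a fit with both sex and genotype, the log2 difference of male over female was 1.06 (SE 0.30, edgeR adjusted p = 0.84) and that between genotypes was 0.50. Between the groups, the difference in mean log2(CPM + 1) was 0.41 among male and 0.48 among female tumors. Since male tumors made up more of the Tmem173iΔmye group, sex and genotype were only partly separable in this design.

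Clu (ENSMUSG00000022037, plus strand, chr14:65968483-65981547), the gene of clusterin, marks the rare revival stem cells of the injured intestine and is also made by stromal cells. It had 271, 256 and 146 FPKM in Tmem173fl/fl replicates 1, 2 and 3 and 273, 380 and 451 FPKM in Tmem173iΔmye replicates 1, 2 and 3. Every Tmem173iΔmye tumor was thus above every Tmem173fl/fl tumor in FPKM, by a narrow margin, and 12.4% of the genes tested separated the groups in that unit (6.14% with Tmem173iΔmye higher). In TMM-normalised CPM the nearest tumors changed places, at 943 for Tmem173fl/fl replicate 1 and 936 for Tmem173iΔmye replicate 1. None of the 7 genes separated the groups in CPM, against 12.5% of the genes tested.

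The mean level of Clu was 774 ± 237 CPM (SD, n = 3) in Tmem173fl/fl and 1270 ± 311 CPM in Tmem173iΔmye tumors. The log2 fold change was 0.71 (SE 0.28, 95% interval 0.05 to 1.37), or 1.64-fold, with an unadjusted p of 0.0382 and an adjusted p of 0.742 by edgeR. It ranged from 0.48, without Tmem173fl/fl replicate 3, to 0.89, without Tmem173iΔmye replicate 1, when single tumors were left out. Unlike for Ly6a, the sex term was close to 0 (-0.01, SE 0.30, edgeR adjusted p = 0.998). The difference between genotypes in mean log2(CPM + 1) was 0.23 among male and 1.22 among female tumors. Beside these values, the 9 fibroblast markers summed to 220 to 280 FPKM in Tmem173fl/fl and 239 to 340 FPKM in Tmem173iΔmye tumors, and the 7 smooth muscle markers to 116 to 166 and 93.5 to 153 FPKM; their part in the level of Clu was not tested.

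Msln (ENSMUSG00000063011, minus strand, chr17:25748614-25754327), the gene of mesothelin, is expressed by the serosal lining and by many carcinomas. It had 15.1, 12.0 and 35.8 FPKM in Tmem173fl/fl replicates 1, 2 and 3 and 9.80, 15.4 and 10.1 FPKM in Tmem173iΔmye replicates 1, 2 and 3. Tmem173fl/fl replicate 3 was high, and the other 5 tumors formed a single overlapping range. The level was 44.4 ± 27.5 CPM (SD, n = 3) against 24.9 ± 6.76 CPM, and the log2 fold change was -0.84 (SE 0.41, 95% interval -1.79 to 0.12, edgeR adjusted p = 0.742). Without Tmem173fl/fl replicate 3 it was -0.20.

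Markers of mesothelium were low in each tumor. The 9 mesothelial markers other than Msln summed to 0.791, 0.523 and 1.10 FPKM in Tmem173fl/fl replicates 1, 2 and 3 and to 0.376, 0.657 and 0.372 FPKM in the Tmem173iΔmye tumors, and none of the 9 passed the filter. Their sum was highest in Tmem173fl/fl replicate 3, the tumor with the highest Msln level. Most of it there came from Upk1b (0.685 FPKM, 24 counts), while Upk3b, Lrrn4 and Bnc1 were at 0 in that tumor. The part of mesothelial cells in the level of Msln was not tested.

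Anxa1 (ENSMUSG00000024659, minus strand, chr19:20373428-20390944) encodes annexin A1, a ligand of formyl peptide receptors that acts in the resolution of inflammation. It had 191, 171 and 157 FPKM in Tmem173fl/fl and 238, 184 and 160 FPKM in Tmem173iΔmye replicates 1, 2 and 3. In both groups the male tumors were the high ones, and the groups overlapped over most of their range. The log2 fold change was 0.16 (SE 0.18, 95% interval -0.26 to 0.59, edgeR adjusted p = 0.828), and without Tmem173iΔmye replicate 1 it was -0.0081. Among its receptors, Fpr1 and Fpr2 had log2 fold changes of 0.32 (SE 0.46) and 0.52 (SE 0.73), both within the spread of the replicates, and Fpr3 was listed at 0 in all 6 tumors.

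Anxa3 (ENSMUSG00000029484, plus strand, chr5:96793339-96845966), another annexin of the fetal-like program, had 61.3, 34.0 and 49.8 FPKM in Tmem173fl/fl and 58.1, 53.5 and 48.2 FPKM in Tmem173iΔmye replicates 1, 2 and 3. Tmem173fl/fl replicate 2, the tumor with the most squamous marker RNA, was low, and the other 5 tumors lay close together. The log2 fold change was 0.14 (SE 0.22, 95% interval -0.37 to 0.64, edgeR adjusted p = 0.884), and without that tumor it was -0.069.

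Anxa8 (ENSMUSG00000021950, plus strand, chr14:34085981-34100571), an annexin that is abundant in stratified epithelia, had 224, 186 and 170 FPKM in Tmem173fl/fl and 166, 171 and 185 FPKM in Tmem173iΔmye replicates 1, 2 and 3. A630023A22Rik overlaps Anxa8 on the opposite strand and had almost no counts of its own. Apart from Tmem173fl/fl replicate 1, which was highest, all tumors fell into a single narrow range shared by both groups. The log2 fold change was -0.16 (SE 0.15, 95% interval -0.51 to 0.19, edgeR adjusted p = 0.803). Anxa8 was the steadiest of the 7 genes, with an SD within groups of 0.16 on the log2(CPM + 1) scale, beside a median of 0.23 over all genes tested. Anxa8 had 186 FPKM in Tmem173fl/fl replicate 2, where the squamous markers summed to 194 FPKM, and 224 FPKM in Tmem173fl/fl replicate 1, where they summed to 31.6 FPKM. The part of squamous cells in the level of Anxa8 was not tested.

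Ankrd1 (ENSMUSG00000024803, minus strand, chr19:36111965-36119844) was close to the limit of detection. It had 7, 8 and 17 counts in Tmem173fl/fl and 6, 14 and 7 counts in Tmem173iΔmye replicates 1, 2 and 3, or 0.214 to 0.574 FPKM over all tumors. The groups overlapped fully, and a difference was not detectable at this depth. Fitted without the filter, the log2 fold change was -0.23 (SE 0.62, 95% interval -1.54 to 1.08, edgeR adjusted p = 0.932). Ankrd1 is also expressed in striated muscle, whose 10 markers summed to 2.07 to 6.68 FPKM, with Myh1 and Myh4 listed at 0 in each tumor.

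**Figure D2:**
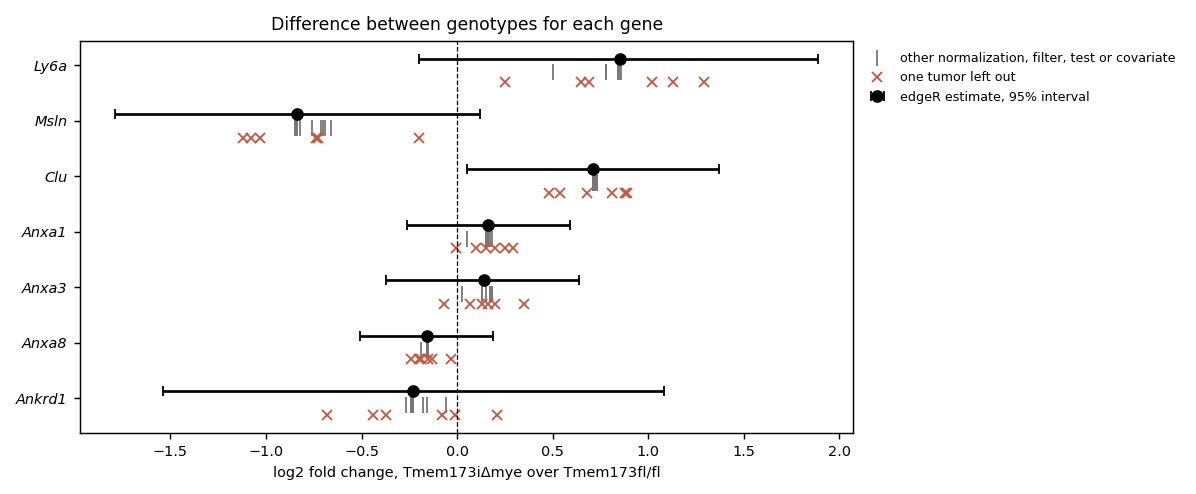
Log2 fold change of each gene, Tmem173iΔmye over Tmem173fl/fl. Black points and bars give the edgeR estimate with its 95% interval, grey ticks other normalizations, filters, tests or covariates, and red crosses the fits with 1 tumor left out. The interval lies to the right of 0 for Clu (0.05 to 1.37) and includes 0 for the other 6 genes, and the crosses of Anxa1, Anxa3 and Ankrd1 fall on both sides of 0.

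The intervals bounded what these 6 tumors could show. For Anxa1, Anxa3 and Anxa8 they ended at 0.59, 0.64 and -0.51 on the log2 scale, so that a change of 2-fold between the genotypes lay outside each. For Ly6a, Clu, Msln and Ankrd1 a change of that size lay within the interval. Of the tested genes, Ly6a and Msln had the widest spread within groups. With SDs of 0.71 and 0.63 on the log2(CPM + 1) scale, they were at the percentiles 95.7 and 93.9 of all genes tested, and Clu, with 0.44, was at 85.1. Anxa3, Anxa1 and Anxa8 were at 71.5, 49.1 and 26.6.

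The genes peaked in different tumors. By CPM, 2 genes were highest in Tmem173fl/fl replicate 1 (Anxa3 and Anxa8), 2 in Tmem173fl/fl replicate 3 (Msln and Ankrd1), 2 in Tmem173iΔmye replicate 1 (Ly6a and Anxa1) and 1 in Tmem173iΔmye replicate 3 (Clu). No tumor was high for all of them. The tumor with the most Ly6a had the least Msln, Anxa8 and Ankrd1, each by a narrow margin. The next lowest tumor had 21.3 against 20.7 CPM of Msln, 321 against 312 CPM of Anxa8 and 7 against 6 counts of Ankrd1. The order of tumors for Ankrd1 rests on 6 to 17 counts.

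Likeness of profiles was measured as the root mean square difference between log2(CPM + 1) values over the 6 tumors, each gene centred on its own mean. For Ly6a the nearest of the tested genes were the immunoglobulin segment Ighv1-72 (0.069), the translocon subunit gene Sec61b (0.11) and the RNA polymerase subunit gene Polr2k (0.12). For Clu they were Thbs1, the gene of thrombospondin 1 (0.10), Kctd21 (0.18) and Tinag (0.18), and for Msln 9230105E05Rik (0.14), Ldhb (0.20) and Coq8a (0.21). Nearest to Anxa1 were Kctd14 (0.036), Clic1 (0.04) and Rtraf (0.041), and nearest to Anxa3 were Vps28 (0.031), Unc50 (0.035) and Tm2d1 (0.047).

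None of the 7 genes was among the closest to another. Anxa1 and Anxa3 were nearest to each other within the list, at 0.24, yet Anxa3 ranked only 5014 of 16425 tested genes by likeness to Anxa1, and Anxa1 ranked 2875 by likeness to Anxa3. For Ly6a the nearest within the list was Anxa1, at 0.51, and for Clu it was Anxa8, at 0.51. Nearest to Anxa8 were Gm8783 (0.031), Gm2225 (0.036) and Gm25190 (0.046), of which Gm25190 had a log2 fold change of -2.24 at 0.795 FPKM, so that the pseudocount of 1 flattened its profile and the likeness says little. The same limit holds for Ankrd1, to which the nearest were Ncam1 (0.047), Pla2g7 (0.048) and Gm22307 (0.051). These values are a description over 6 tumors.

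Beyond the 7 genes, the wider program showed small differences. Of 18 other fetal-like genes, 14 were above and 4 below 0, with a median log2 fold change of 0.22, and none passed the threshold of the study. The most abundant were S100a6 (773 FPKM), Lgals3 (372 FPKM) and Anxa2 (357 FPKM), with log2 fold changes of 0.49 (SE 0.38), 0.07 (SE 0.23) and 0.37 (SE 0.22). The summed level of the 18 genes was 1950 to 2620 FPKM in Tmem173fl/fl and 2290 to 3220 FPKM in Tmem173iΔmye tumors, and the groups overlapped.

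Targets of YAP and TEAD, the factors known to drive Ankrd1, lay on both sides of 0. Of 22 such genes, 13 were above and 9 below 0, with a median of 0.02 and none past the threshold. By edgeR, 2 of the 22 had an unadjusted p under 0.05, against 6.14% of all genes. These were Ccn1 (log2 fold change 0.40, SE 0.15) and Arhgef17 (-0.50, SE 0.21), in opposite directions. Ccn2 had 0.38 (SE 0.33). F3, the gene of tissue factor, Igfbp3 and Nt5e were the most abundant, with log2 fold changes of 0.28 (SE 0.15), -0.16 (SE 0.17) and 0.11 (SE 0.20). Of 19 genes of the Hippo kinases, YAP, TAZ and their TEAD and Vgll partners, 4 were above and 15 below 0, with a median of -0.13 and none past the threshold. Mob1a, Vgll4 and Tead2 had log2 fold changes of -0.03 (SE 0.14), -0.13 (SE 0.19) and -0.13 (SE 0.15). Without Tmem173fl/fl replicate 2, the tumor with squamous markers, the median of this list was 0.0088.

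Crypt-base stem cell genes, which the fetal-like state replaces in injured crypts, lay on both sides of 0. Of 14 tested of 15, 6 were above and 8 below 0, with a median of -0.02 and none past the threshold. They ran from -0.43 for Lgr5 (SE 0.19) to 0.86 for Msi1 (SE 0.27). Slc12a2, Axin2 and Prom1 had log2 fold changes of -0.25 (SE 0.23), -0.20 (SE 0.20) and 0.08 (SE 0.16).

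The relatives of the annexins were spread around 0, while those of Ly6a spread more widely and lay mostly above it. Of 8 tested annexins other than the 3 above, 4 were above and 4 below 0, with a median of 0.10. They ran from -0.55 for Anxa11 (SE 0.13) to 0.60 for Anxa9 (SE 0.31). Anxa4 and Anxa5 had log2 fold changes of 0.30 (SE 0.14) and 0.32 (SE 0.22). Of 13 tested Ly6 genes other than Ly6a, 9 were above and 4 below 0, with a median of 0.15 and none past the threshold. They ran from -0.92 for Ly6k (SE 1.45) to 2.28 for Ly6i (SE 1.03). Ly6c1 and Ly6c2 had 0.96 (SE 0.61) and 1.51 (SE 0.71) and, like Ly6i and Ly6a, were highest in Tmem173iΔmye replicate 1. Lypd8, which keeps flagellated bacteria from the colonic mucosa and was the most abundant at 3680 FPKM, had 0.29 (SE 0.23) as its log2 fold change. Ly6e and Ly6d had 0.29 (SE 0.18) and 0.15 (SE 0.24).

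Genes of the interferon response, which also induces Ly6a, stood out from these lists. All 18 lay above 0, the median being 1.52, and 13 were past the threshold of the study in the direction of Tmem173iΔmye, against 1.26% of the genes tested. These were Ifit1, Ifit2, Ifit3, Isg15, Mx1, Rsad2, Usp18, Oasl2, Gbp2, Gbp3, Cxcl10, Bst2 and Ifi44, with log2 fold changes from 1.01 for Usp18 to 2.50 for Cxcl10, and each had an edgeR adjusted p of 0.742. Their sum was 194, 118 and 103 FPKM in Tmem173fl/fl and 723, 190 and 240 FPKM in Tmem173iΔmye replicates 1, 2 and 3. The highest sum was in the tumor with the most Ly6a, without which the median of the list was 0.70. The part of the interferon response in the level of Ly6a was not tested.

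**Figure D3:**
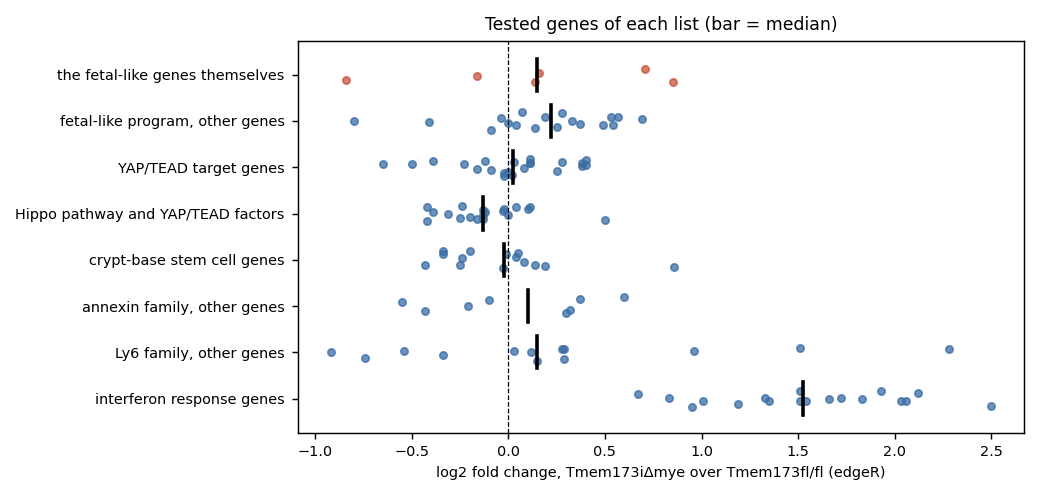
Log2 fold changes of the tested genes in each list, Tmem173iΔmye over Tmem173fl/fl. Each point is 1 gene (red, the 6 tested fetal-like genes) and each bar the median of the list. The medians of the fetal-like, YAP/TEAD, Hippo, stem cell, annexin and Ly6 lists lay between -0.13 and 0.22, and that of the interferon response genes was 1.52.

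Because Ankrd1 is a textbook target of YAP and TEAD, the promoters of the fetal-like genes were read for the TEAD core GGAATG on either strand. RefSeq promoter sequences on GRCm38.p6 were at hand for 3 of the 7 genes. Each is given below 5′ to 3′ as the 250 bases before the start site, on the strand of the gene, with matches to the core in capitals. They are, in order, chr14:34085729-34085978 for Anxa8 on the plus strand and chr19:20390672-20390921 for Anxa1 and chr19:36119845-36120094 for Ankrd1 on the minus strand. The RefSeq start of Anxa1 lies downstream of the 5′ end that the deposited table gives, so its window falls inside the gene interval printed above.
Anxa8: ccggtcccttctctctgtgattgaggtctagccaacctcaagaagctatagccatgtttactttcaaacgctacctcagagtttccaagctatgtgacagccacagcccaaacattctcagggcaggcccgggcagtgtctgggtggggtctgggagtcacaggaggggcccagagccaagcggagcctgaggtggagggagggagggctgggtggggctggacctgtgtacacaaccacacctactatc
Anxa1: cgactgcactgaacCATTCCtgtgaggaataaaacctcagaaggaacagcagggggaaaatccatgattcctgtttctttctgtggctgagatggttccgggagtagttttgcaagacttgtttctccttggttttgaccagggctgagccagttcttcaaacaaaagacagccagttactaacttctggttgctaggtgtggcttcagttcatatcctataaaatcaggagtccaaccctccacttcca
Ankrd1: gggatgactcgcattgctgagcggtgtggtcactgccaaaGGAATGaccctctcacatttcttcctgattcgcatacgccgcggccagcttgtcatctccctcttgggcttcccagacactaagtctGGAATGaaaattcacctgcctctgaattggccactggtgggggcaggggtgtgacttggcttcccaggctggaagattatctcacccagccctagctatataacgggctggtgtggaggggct

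Ankrd1 held 2 matches, from 210 to 205 and from 123 to 118 bases before the start, and Anxa1 held 1 match on the opposite strand, from 236 to 231 bases before the start. In Anxa8 these letters were not found. Of 32851 RefSeq promoters of this length, 12.6% held the core at least at 1 place. The AP-1 letters TGANTCA (6.75% of promoters) and the interferon-stimulated response element (2.98%), each read on both strands, were in none of the 3 windows. Of these 3 genes, Ankrd1 had a mean of 0.349 FPKM in these tumors, and Anxa8 and Anxa1 had 184 FPKM each. A link between the matches and the levels was not tested.

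Ly6a was not alone in being higher in each male tumor. Anxa1 (483 to 620 against 411 to 442 CPM) and Anxa3 (196 to 226 against 123 to 182 CPM) shared this pattern, so that 3 of the 7 genes had higher levels in every male than in every female tumor, against 9.7% of the genes tested. The sex terms of Anxa1 and Anxa3 were 0.32 (SE 0.17) and 0.39 (SE 0.19), each with an edgeR adjusted p of 0.84. With sex as a covariate, the log2 fold changes between genotypes were 0.051 for Anxa1 and 0.028 for Anxa3. The summed level of the 18 other fetal-like genes was also higher in every male tumor (2520 to 3220 against 1950 to 2290 FPKM), as was that of the 9 other annexins (599 to 803 against 523 to 595 FPKM). Anxa2 is in both lists and made up most of the annexin sum, with 367 to 510 FPKM in male and 269 to 332 FPKM in female tumors.

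Of the 12 cell type lists, 3 were higher in every male tumor and the other 9 overlapped between the sexes. The summed level in male against female tumors was 6720 to 7720 against 5990 to 6620 FPKM for epithelial markers, 449 to 526 against 294 to 327 FPKM for macrophage markers and 11.4 to 14.0 against 5.41 to 7.44 FPKM for T cell markers, and their part in the levels of Ly6a, Anxa1 and Anxa3 was not tested. Between genotypes, the endothelial markers, which include cells that carry Ly6a, summed to 31.4 to 38.1 FPKM in Tmem173fl/fl and 36.9 to 47.1 FPKM in Tmem173iΔmye tumors. Markers of B cells and follicular dendritic cells, the latter a source of Clu, summed to 65.3, 15.1 and 19.4 FPKM in Tmem173fl/fl and to 5.67, 37.1 and 5.39 FPKM in Tmem173iΔmye replicates 1, 2 and 3. They were lowest in the tumor with the highest Clu level and high in the tumor with the next highest, and their part in the level of Clu was not tested. For macrophage markers the sums were 312 to 515 and 294 to 526 FPKM, for T cell markers 5.41 to 12.9 and 7.44 to 14.0 FPKM, and for markers of enteric glia and neurons 8.25 to 14.5 and 8.41 to 14.6 FPKM in Tmem173fl/fl and Tmem173iΔmye tumors.

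**Figure D4:**
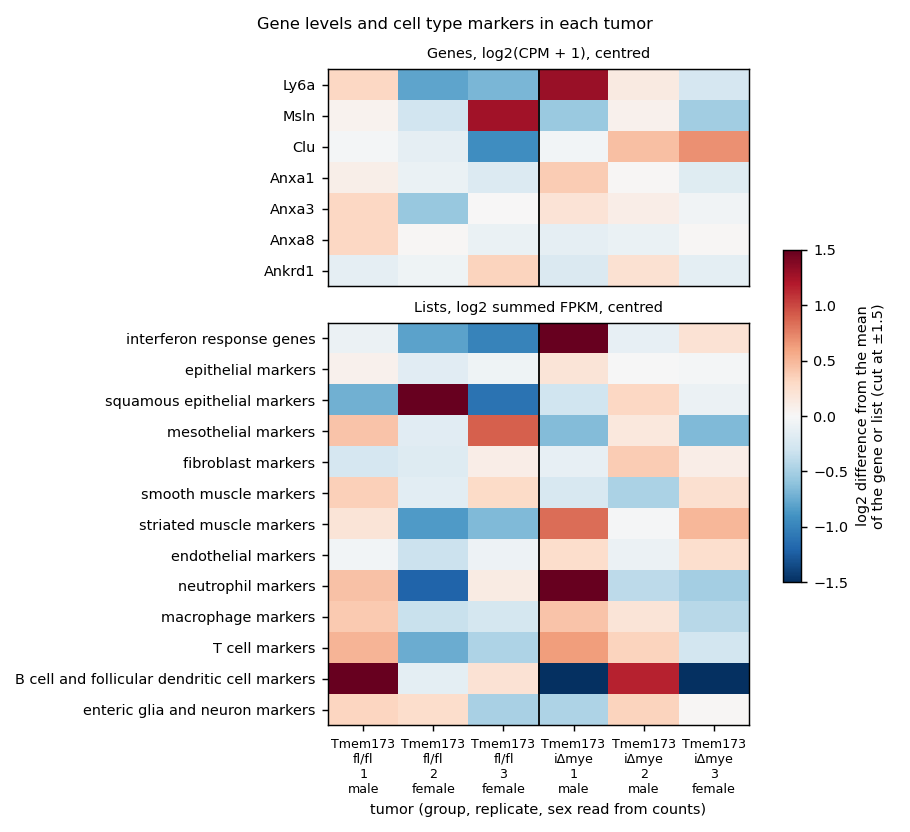
Each row shows 1 gene (top, log2(CPM + 1)) or 1 list of genes (bottom, log2 of the summed FPKM) in the 6 tumors, centred on its own mean, with the color scale cut at 1.5. Ly6a and the summed interferon and summed neutrophil genes were highest in Tmem173iΔmye replicate 1 (1160, 723 and 550 FPKM). Msln and the summed mesothelial markers were highest in Tmem173fl/fl replicate 3 (35.8 and 1.10 FPKM, with 0.685 FPKM of the sum from Upk1b).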

How the data were processed

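Bulk RNA-seq libraries of 3 Tmem173fl/fl and 3 Tmem173iΔmye tumors were re-analysed. In a single table the authors deposited read counts of each gene, not normalised, and FPKM values, with gene names, coordinates and lengths. Per the submitters' processing notes, the tools were CASAVA 1.8, fastp, HISAT2 2.0.5, featureCounts 1.5.0-p3 and DESeq2 1.20.0, and the build GRCm38 (mm10). The deposited FPKM equal the counts divided by gene length and by 1 factor per tumor (largest relative deviation 4.8e-08). The table also holds the authors' own comparison, as the normalised signal (mean count of each group), log2 fold changes and p-values with adjusted p-values. None of these deposited columns was used.

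Under R 4.3.3, edgeR 4.0.16 fitted the genotype alone to TMM-normalised counts. Its quasi-likelihood test was run over the 16426 genes whose mean was 0.5 FPKM or more, and p-values were adjusted over all of them (Benjamini-Hochberg). SE was taken from the fold change and the F statistic of that test. The 17 alternatives included DESeq2 1.42.0, limma 3.58.1, other filters and scalings, the replicate number as a block, sex as a covariate, and the omission of single tumors. Promoters came from RefSeq tables. The genes named were the 7 members, the 3 most abundant genes of each of 8 pathway lists and those past the threshold of the study, the 3 nearest profiles, and the leading markers of 12 cell type lists. Other list genes were named where they set a sum or a range, as were Ly6c1, Ly6c2, Ly6g, Ccn1, Ccn2 and Arhgef17. Genes without a result of their own in the text were left out. The members and lists were chosen with earlier results of these data known. Of 221 listed genes, 220 were found. Counting error limits genes near 10 counts, such as Ankrd1. The strand setting of the counting is not given in the sources used here.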

Additional observations from a re-analysis of the deposited data

Results flagged for a closer look

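For Anxa8, the single male Tmem173fl/fl tumor lay above both male Tmem173iΔmye tumors, while the female tumors showed almost no difference. Such a gap needs only 1 tumor outside the range of 2, and its share over all genes was not counted. In mean log2(CPM + 1), Tmem173iΔmye minus Tmem173fl/fl was -0.43 among the male and 0.06 among the female tumors. The male Tmem173iΔmye tumors had 312 and 322 CPM and the male Tmem173fl/fl tumor 427 CPM, while the female Tmem173iΔmye tumor, at 348 CPM, was level with the higher of the female Tmem173fl/fl tumors (321 and 348 CPM). In FPKM the female Tmem173iΔmye tumor was just below it, at 185 against 186. With 1 Tmem173fl/fl and 2 Tmem173iΔmye male tumors and 2 and 1 female tumors, the difference between the sexes was not tested. The means of Anxa3 (-0.15 and 0.23), Ankrd1 (0.15 and -0.28) and Anxa1 (0.12 and -0.02) also had opposite signs in male and female tumors. For Anxa3 the male tumors did not overlap either, at 226 CPM in Tmem173fl/fl against 211 and 196 CPM in Tmem173iΔmye, while the female tumors overlapped. For Anxa1 the genotypes overlapped in each sex, and for Ankrd1 in the male tumors alone.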

How the results depend on the processing

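Across the 17 alternatives, no fetal-like gene reached an adjusted p under 0.05. Clu, Ly6a, Msln and Anxa8 kept their direction in every one, with log2 fold changes of 0.48 to 0.89, 0.25 to 1.29, -1.12 to -0.20 and -0.24 to -0.032. With single tumors left out, Anxa1 ranged from -0.0081 to 0.29, Anxa3 from -0.069 to 0.35 and Ankrd1 from -0.68 to 0.21, and 0 to 1 of the 7 genes were past the fold and p threshold: Ly6a without Tmem173fl/fl replicate 1 or Tmem173iΔmye replicate 3, and Msln without Tmem173fl/fl replicate 2. Groups not overlapping numbered 0 of the 7 genes in CPM and 1 in FPKM, a unit added after the values were seen. Over all genes, those with an adjusted p under 0.05 numbered 0 by edgeR, where 1008 had an unadjusted p under 0.05, 6 without a filter, 28 by DESeq2 (1093 unadjusted), and 0 to 1 with single tumors left out. Genes past the fold and p threshold numbered 349, but 872 without a filter, 208 among protein-coding genes, 136 by limma on log2(FPKM + 1), 211 with sex as a covariate and 218 to 636 with single tumors left out. Leaving out single tumors gave medians of -0.22 to 0.0088 for the Hippo list, 0.0046 to 0.36 for the Ly6 list and 0.70 to 1.93 for the interferon list, and protein-coding genes alone gave 0.29 for the annexins, since Anxa13 then drops out. In the other cases the cause was not tested. Where a group was left with 2 tumors, the spread was pooled over both groups.

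Same-numbered tumors did not deviate together in each pair (correlations 0.315, 0.008 and 0.154), so the replicate numbers were not taken as pairing. In the fit with a replicate block, 377 genes passed the fold and p threshold, 0 had an adjusted p under 0.05, and Ly6a had a log2 fold change of 0.78 (edgeR adjusted p = 0.384). The filter of a mean FPKM of at least 1 and the fit without a filter gave no separate value for Ankrd1.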
